A study of Mus musculus with 11 samples.

Results

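The 45 genes described here encode ligands, receptors, intracellular transducers, extracellular regulators and early targets of the TGF-beta and BMP pathways. They were listed by name, with earlier results of these data known. Open chromatin was mapped by ATAC-seq, which reads out where the Tn5 transposase could cut, and 493 of the 153396 peaks of the whole series belonged to these genes. A peak belonged to a gene if it overlapped the gene body or lay within 10 kb of one of its transcription start sites (TSSs) in mm10. Peaks within 500 bp of a TSS are called promoter peaks and the rest other peaks. There were 57 promoter peaks in 42 of the genes, of which 42 were the main promoter peak (the most accessible of each gene) and 15 were further promoter peaks. The 436 other peaks lay in 44 genes, 322 of them in introns, 54 upstream of the gene, 39 over coding exons and the remainder in UTRs or downstream. Bmp4, Bmp5 and Eng had no promoter peak, and Grem1 had no other peak.

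The nuclei came from C57BL/6 mice that carried an E-cadherin-GFP reporter, aged 5 weeks and so in puberty. The terminal end bud (TEB) is the club-shaped structure at the tip of each elongating duct. TEBs were micro-dissected apart from the ducts behind them. Lineage-negative CD29+CD24+ cells were then sorted on the reporter, with low GFP taken as basal and high GFP as luminal. The comparisons ask how accessibility differs between the lineages and between the structures. Basal duct had 2 libraries (replicates 1 and 3), while basal TEB, luminal TEB and luminal duct had 3 each, prepared from 3 pools of mice. Another basal duct sample was discarded by the study for low cell number. Each library is a mixture of cells, so fewer open cells of a type and less open chromatin per cell cannot be told apart.

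TGF-beta and BMP ligands are secreted dimers that bring together type I and type II serine/threonine kinase receptors, and the type I receptor phosphorylates a receptor-regulated SMAD. SMAD2 and SMAD3 serve TGF-beta and activin, SMAD1, SMAD5 and SMAD9 serve BMPs, and both sets enter the nucleus with SMAD4. SMAD6 and SMAD7 are inhibitory SMADs, and SKI and SKIL (SnoN) repress SMAD-dependent transcription. TGF-beta is stored in the matrix in a latent complex with latent TGF-beta binding proteins (LTBPs). Noggin, gremlin and chordin bind BMPs, and follistatin binds activins. In the mammary gland TGF-beta is known as an inhibitor of ductal growth and branching, and Id genes are well-known targets of BMP signalling.

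The libraries held 1821942 to 9986384 counts in peaks, fewest in basal TEB, with a median of 6 counts per peak against 15 to 20 in basal duct, so that weak peaks are measured least well there. Peaks over 50% soft-masked as repeats held 7.03% to 16.2% of the counts in basal TEB and 2.40% to 2.45% in basal duct. The member peaks held 0.422% to 0.439% of all counts in basal duct and in the other libraries 0.303% to 0.337%. Levels are given in CPM (counts scaled to a common library size), with library sizes adjusted by TMM factors over the 11 libraries. Fold changes are log2 values from the edgeR exact test of each pair. A call means a false discovery rate (FDR, or adjusted p) below 0.05 over all peaks. The standard error (SE) beside a fold change was computed apart from that test, between libraries on log2 CPM with a prior count of 2. That prior draws low values together, so the SE can be too small at peaks near 0 in a group. TMM factors from all peaks put the median promoter of all genes 0.65 log2 units lower in basal TEB than in basal duct and 0.31 higher in basal than in luminal duct. Factors estimated from the 16630 peaks at TSSs put both medians near 0, and fold changes with these factors are given beside the main ones as TSS-scaled. Promoters of 6 basal markers (such as Krt5, Krt14 and Trp63) were called higher in basal cells in ducts and in TEBs (6 of 6 in each). Of 8 luminal markers, 6 were called lower in basal duct and 7 in basal TEB than in the luminal cells of the same structure.

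The other peaks with the smallest p in each direction, between the lineages in ducts and between basal TEB and basal duct, are shown first. Each is given as 300 bases around the peak centre in mm10. Capitals mark matches on either strand to words of known motifs, namely CAGACA for SMAD, TGANTCA for AP-1, CATTCC for TEAD and TGTTTAC for forkhead factors. Searches for GGCGCC (a GC-rich SMAD word) and CCGGAAG (ETS) found no match in these windows. The Tgfbr3 and Ltbp1 windows differ between the lineages in ducts, and the Smad3 and Fstl1 windows differ between basal TEB and basal duct.
Tgfbr3 intron, chr5:107124430-107124729, minus strand: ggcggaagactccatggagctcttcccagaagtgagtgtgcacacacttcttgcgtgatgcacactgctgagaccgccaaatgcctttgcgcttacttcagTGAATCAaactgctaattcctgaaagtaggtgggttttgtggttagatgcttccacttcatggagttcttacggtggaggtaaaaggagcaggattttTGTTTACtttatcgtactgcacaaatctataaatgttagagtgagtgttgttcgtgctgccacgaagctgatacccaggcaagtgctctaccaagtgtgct
Ltbp1 intron, chr17:75112974-75113273, plus strand: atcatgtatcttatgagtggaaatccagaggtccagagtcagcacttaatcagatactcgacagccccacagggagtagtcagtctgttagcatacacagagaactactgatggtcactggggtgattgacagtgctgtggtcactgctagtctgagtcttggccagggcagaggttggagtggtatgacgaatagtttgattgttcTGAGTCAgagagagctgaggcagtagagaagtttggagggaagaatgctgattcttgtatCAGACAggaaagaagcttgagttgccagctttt
Smad3 intron, chr9:63746093-63746392, minus strand: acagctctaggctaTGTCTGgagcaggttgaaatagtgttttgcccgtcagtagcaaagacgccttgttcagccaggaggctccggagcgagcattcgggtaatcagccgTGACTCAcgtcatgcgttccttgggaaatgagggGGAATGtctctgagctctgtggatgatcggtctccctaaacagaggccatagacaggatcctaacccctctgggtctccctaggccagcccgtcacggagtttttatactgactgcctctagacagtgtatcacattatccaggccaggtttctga
Fstl1 intron, chr16:37781611-37781910, plus strand: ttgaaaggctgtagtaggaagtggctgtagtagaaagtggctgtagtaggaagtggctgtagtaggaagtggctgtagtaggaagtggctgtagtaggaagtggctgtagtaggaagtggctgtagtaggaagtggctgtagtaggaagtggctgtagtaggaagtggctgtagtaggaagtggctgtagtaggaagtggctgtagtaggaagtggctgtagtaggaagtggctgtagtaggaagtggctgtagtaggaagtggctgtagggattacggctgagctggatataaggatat

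The Smad3 window holds a match to each of the SMAD, AP-1 and TEAD words, the Tgfbr3 window an AP-1 and a forkhead match, and the Ltbp1 window an AP-1 and a SMAD match. In windows of this length at all other peaks of genes, 29.7% held the SMAD word, 28% the AP-1 word, 22.4% the TEAD word and 7.11% the forkhead word. The Fstl1 window is a tandem repeat. Over the 239 bp of that peak, 99.6% of bases equal the base 16 positions before, against a median of 32.5% at the best period for the 352 other member peaks not called between basal TEB and basal duct. It is not soft-masked in the reference, and whether its reads map uniquely was not tested.

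In ducts, the promoters of these genes were more often higher in basal than in luminal cells. Of the 57 promoter peaks, 38 were called higher in basal duct and 4 lower, where 43.8% and 12% of all 16630 TSS peaks were. With TSS-scaled factors the counts were 25 higher and 10 lower, against 27.2% and 27.7% of all TSS peaks. Their median log2 fold change was 0.75, or 0.43 TSS-scaled. The secreted antagonists (8 of 9 promoter peaks higher) and the LTBPs (7 of 8) leaned furthest to basal cells, with 7 of 9 and 7 of 8 still called TSS-scaled and none lower. SMAD and SKI promoters split under the scaling, from 6 higher and 1 lower of 13 to 2 higher and 6 lower. In TEBs the counts were smaller, with 11 promoter peaks higher in basal TEB and 7 lower, against 10.4% and 14.7% of all TSS peaks, and 12 and 7 TSS-scaled, against 13.6% and 13.5%. All 11 promoter peaks called higher in basal TEB were also called higher in basal duct, and none was called in opposite directions. The spread between libraries in the edgeR fit (biological coefficient of variation) was 0.242 in the TEB comparison and 0.126 in the duct comparison. The part of this spread in the smaller TEB counts was not tested.

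**Figure D1:**
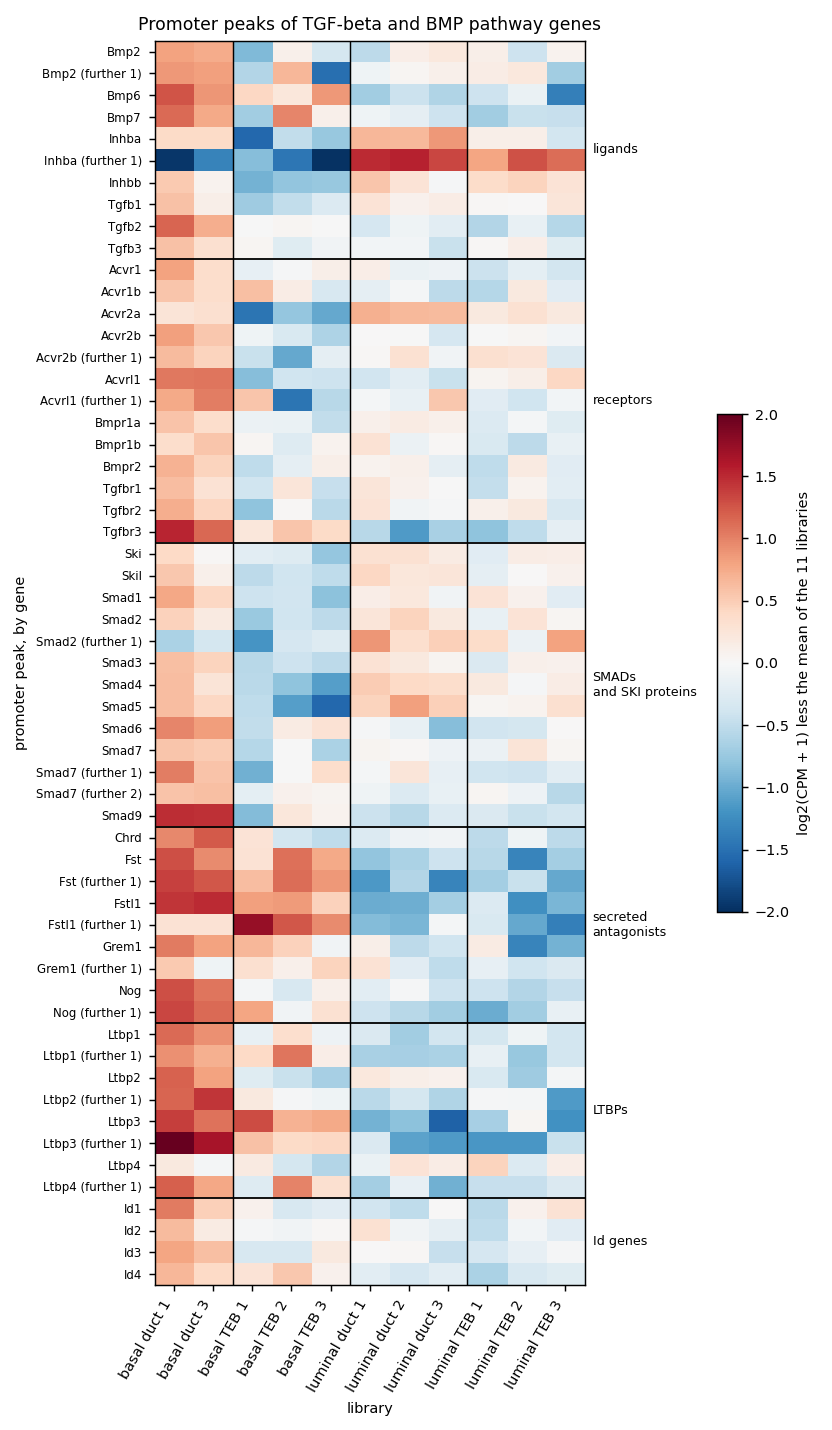
Each row is 1 of the 57 promoter peaks, ordered by role and gene, and each column 1 of the 11 libraries; colour gives log2(CPM + 1) less the mean of the row over the libraries. The basal duct columns are the highest in most rows, the further promoter peak of Inhba is high in the 6 luminal libraries, and both Fst promoter peaks are high in the 5 basal ones.

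Among the ligands, Bmp6, Bmp7, Bmp2, Tgfb2 and Tgfb3 were higher at their promoters in basal duct with the main scaling, and Inhba was lower. Of the 10 ligand promoter peaks, 6 were called higher and 2 lower with that scaling. TSS-scaled, 3 were higher and 3 lower, against 27.2% and 27.7% of all TSS peaks. The Bmp2 call was lost in 2 of 12 alternatives. Bmp6 encodes a BMP of the same subgroup as Bmp7. Its promoter was 27.6 and 21 CPM in the basal duct libraries, 14.8, 12.9 and 20.8 in basal TEB, 6.36, 7.84 and 6.88 in luminal duct and 7.96, 9.84 and 3.62 in luminal TEB, so that the basal and luminal libraries did not overlap in either structure. The log2 fold change was 1.73 ± 0.21 (SE), adjusted p = 2.39e-15 in ducts and 1.16 ± 0.45 (SE), adjusted p = 0.0024 in TEBs, and the TEB call was lost without luminal TEB replicate 3. The Bmp7 promoter had 37.6 ± 7.04 CPM (mean ± SD) over the 2 basal duct libraries and 16.1 ± 1.96 over the 3 from luminal duct, a log2 fold change of 1.16 ± 0.21 (SE), adjusted p = 2.56e-10. Tgfb2 stood at 34.3 ± 7.48 CPM in basal duct against 14.7 ± 1.34 in luminal duct (1.16 ± 0.23 (SE) on the log2 scale, adjusted p = 6.5e-10), and no TEB call was made. Tgfb1, the best-known form of TGF-beta, was not called between the lineages, with 33.6 ± 7.89 CPM in basal duct and 29.2 ± 1.96 in luminal duct.

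Inhba, which encodes the subunit of activin A, had the strongest luminal difference of all promoter peaks of these genes. Its further promoter peak (chr13:16014097-16014525) was 1.37 and 2.62 CPM in the basal duct libraries, 4.09, 2.35 and 1.33 in basal TEB, 24.8, 25.6 and 22.1 in luminal duct and 14.8, 21 and 18.8 in luminal TEB. All luminal libraries lay above all basal ones. Log2 fold changes were -3.71 ± 0.38 (SE), adjusted p = 3.9e-40 in ducts and -2.83 ± 0.41 (SE), adjusted p = 2.39e-11 in TEBs. The main Inhba promoter differed far less, at -0.42 ± 0.07 (SE) in ducts (adjusted p = 0.0136), a call that was lost with DESeq2 and when basal duct replicate 1 or 3 or luminal duct replicate 1 or 3 was left out. Inhbb, which encodes the subunit of activin B, was not called in ducts and was lower in basal TEB than in luminal TEB, with a log2 fold change of -1.25 ± 0.08 (SE) (adjusted p = 3.47e-05).

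Of the receptors, Tgfbr3 stood out. It encodes betaglycan, a co-receptor that presents TGF-beta, TGF-beta2 above all, to the signalling receptors. Its promoter (chr5:107288806-107289948) was 45.5 and 34.8 CPM in the basal duct libraries, 17.9, 22.7 and 19.9 in basal TEB, 9.97, 6.34 and 9.24 in luminal duct and 8.23, 10.4 and 13.2 in luminal TEB. Basal libraries were above luminal ones in both structures. In ducts the log2 fold change was 2.19 ± 0.27 (SE), adjusted p = 6.27e-28, the smallest p of the main promoters, and in TEBs 0.94 ± 0.21 (SE), adjusted p = 0.00564, where the call was lost without luminal TEB replicate 1. Acvrl1, an endothelial type I receptor also known as ALK1, was higher in basal duct as well, at 10.4 ± 0.0752 CPM against 3.31 ± 0.377 in luminal duct, a log2 fold change of 1.58 ± 0.08 (SE), adjusted p = 7.36e-08. Acvr2a, a type II receptor for activins and BMPs, went the other way. Its promoter was 41.4 and 42.8 CPM in the basal duct libraries, 11.8, 19.6 and 16.4 in basal TEB, 56.6, 54.3 and 53.5 in luminal duct and 39.5, 42.4 and 39.5 in luminal TEB, and the log2 fold change was -0.44 ± 0.03 (SE), adjusted p = 0.00735 in ducts and -1.33 ± 0.21 (SE), adjusted p = 2.55e-06 in TEBs. The duct call was lost on leaving out either basal duct library or luminal duct replicate 1 or 2, while the TEB call was kept in every alternative. Bmpr2, Tgfbr2, Acvr1, Acvr1b and Acvr2b were called higher in basal duct, with log2 fold changes of 0.53, 0.48, 0.58, 0.67 and 0.75, but of these 5 only Acvr2b remained called TSS-scaled. Tgfbr1, Bmpr1a and Bmpr1b were not called in either structure.

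The Acvr2a promoter is shown as the 250 bases before its RefSeq start site (GRCm38, chr2:48813859-48814108, plus strand), of which 82% are G or C. None of the 6 motif words occurs in it. Of all promoters, 17.1% hold the SMAD word and 9.59% its GC-rich form in windows of this length.
Acvr2a: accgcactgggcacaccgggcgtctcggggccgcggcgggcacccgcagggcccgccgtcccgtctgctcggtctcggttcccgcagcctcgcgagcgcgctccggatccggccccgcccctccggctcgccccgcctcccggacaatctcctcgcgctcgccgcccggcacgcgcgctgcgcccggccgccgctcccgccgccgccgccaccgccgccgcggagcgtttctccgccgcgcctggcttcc

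Among the main promoters of the SMAD and SKI genes, the largest difference between the lineages in ducts was at Smad9, which encodes a BMP SMAD also known as SMAD8. Smad9 was 27.5 and 27.3 CPM in the basal duct libraries, 4.6, 11 and 9.75 in basal TEB, 6.57, 5.97 and 7.52 in luminal duct and 7.41, 6.56 and 6.92 in luminal TEB. The basal duct libraries were far above the other 9, and the basal TEB range overlapped both luminal groups. The log2 fold change was 1.97 ± 0.09 (SE), adjusted p = 2.94e-20 in ducts, and no call was made in TEBs. Smad6 followed at 1.19 ± 0.27 (SE), adjusted p = 1.33e-10. A weaker further promoter peak of Smad2, a TGF-beta SMAD, was lower in basal duct (0.456 and 0.77 CPM) than in luminal duct (3.18, 1.87 and 2.15 CPM), without overlap and with a log2 fold change of -2.03 ± 0.29 (SE), adjusted p = 0.00117. In TEBs, Smad4, Smad5 and Smad2 were lower in basal cells. Smad5 was 15.8, 10.2 and 7.09 CPM in basal TEB and 23.6, 24.3 and 29 in luminal TEB (-1.23 ± 0.33 (SE), adjusted p = 0.000219). Smad4, the shared partner of both SMAD branches, had 19.4, 16 and 12.9 CPM in basal TEB against 32.9, 28.4 and 31.9 in luminal TEB (-0.95 ± 0.18 (SE), adjusted p = 0.00141). The groups did not overlap for either gene. The Smad2 call (-0.62, adjusted p = 0.0246) was lost without basal TEB replicate 1 or 3 or luminal TEB replicate 2 or 3.

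Of the secreted antagonists, Fstl1 and Fst were higher in basal cells in both structures. Fstl1 encodes a secreted glycoprotein of the follistatin family. Its main promoter was 19.1 and 20 CPM in the basal duct libraries, 12.3, 12.5 and 9.31 in basal TEB, 2.76, 2.8 and 3.65 in luminal duct and 5.21, 2.19 and 2.96 in luminal TEB, with no overlap between lineages. Log2 fold changes were 2.61 ± 0.12 (SE), adjusted p = 1.85e-23 in ducts and 1.70 ± 0.35 (SE), adjusted p = 7.25e-05 in TEBs. Follistatin (Fst) was 18.3 and 14.3 CPM in the basal duct libraries, 8.69, 16 and 12.4 in basal TEB, 3.6, 4.1 and 4.94 in luminal duct and 4.39, 2.19 and 3.95 in luminal TEB. Again the lineages did not overlap, and the log2 fold changes were 1.90 ± 0.21 (SE), adjusted p = 1.67e-13 in ducts and 1.83 ± 0.37 (SE), adjusted p = 2.79e-05 in TEBs. Its further promoter peak moved likewise (2.56 and 1.81). The BMP antagonists Nog and Chrd were higher in basal duct, by 1.43 ± 0.17 and 1.26 ± 0.16 (SE) on the log2 scale (adjusted p = 3.68e-11 and 3.07e-09), but not called in TEBs. Grem1 was weak everywhere, with its main promoter at 6.33 ± 0.884 CPM in basal duct and 2.26 ± 0.803 in luminal duct (1.43 ± 0.27 (SE), adjusted p = 8.1e-05).

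All 4 LTBP genes had a promoter peak called higher in basal duct. Ltbp3 was 18.9 and 15.3 CPM in the basal duct libraries, 17.9, 11.3 and 12 in basal TEB, 2.97, 3.36 and 1.5 in luminal duct and 3.84, 6.83 and 2.31 in luminal TEB. The log2 fold changes of this main promoter peak were 2.63 ± 0.33 (SE), adjusted p = 2.09e-21 in ducts and 1.62 ± 0.45 (SE), adjusted p = 9.99e-05 in TEBs. Its further promoter peak reached 3.39 in ducts. Ltbp1 was 50.3 and 43 CPM in the basal duct libraries, 19.9, 28.6 and 20.8 in basal TEB, 18, 13.4 and 17 in luminal duct and 17.3, 21 and 17.1 in luminal TEB, or 1.48 ± 0.17 (SE), adjusted p = 1.23e-16 in ducts, and was not called in TEBs. Basal TEB libraries lay between basal duct and luminal duct. Ltbp2 had 22 ± 4.33 CPM in basal duct and 11.6 ± 0.598 in luminal duct (0.87 ± 0.20 (SE), adjusted p = 3.18e-05). The main Ltbp4 promoter was not called (-0.08), whereas its further one was, at 2.01 ± 0.37 (SE), adjusted p = 1.55e-07. Among the Id genes, Id1, Id3 and Id4 were called higher in basal duct with log2 fold changes of 1.12, 0.78 and 0.75, TSS-scaled too, and Id4 was also higher in basal TEB (0.73, adjusted p = 0.0118). Id2 was not called.

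Several of these genes are known from fibroblasts, endothelium and pericytes. With TMM factors from all peaks, markers of those cells had their highest levels in basal duct. Of 8 fibroblast markers 3 had a promoter peak (Col1a2, Fbn1 and Pdgfra). In ducts all 3 were called higher in the basal cells, where 43.8% of all TSS peaks were. Their summed level was 82.1 to 97 CPM in basal duct, 40.4 to 50.1 in basal TEB, and for luminal cells 18.7 to 19.2 in ducts and 12.2 to 17.8 in TEBs. Of 8 endothelial markers 3 had a promoter peak (Kdr, Sox17 and Sox18), all called higher in basal than in luminal duct, with summed levels of 26.5 to 30.0 CPM in basal duct, 19.6 to 22.6 in basal TEB, and for luminal cells 4.45 to 7.74 in ducts and 5.46 to 8.89 in TEBs. Pecam1, Cdh5, Tek, Tie1 and Emcn had no promoter peak, and neither had Col1a1, Col3a1, Lum, Dpt and Pi16. The 3 of 5 pericyte markers with a peak (2 called higher in basal than in luminal duct) summed to 26.3 to 30.5 CPM in basal duct, 14.6 to 20.4 in basal TEB, and for luminal cells 10.1 to 12.5 in ducts and 11.5 to 15.5 in TEBs. The 3 of 6 immune markers with a peak summed to 24.5 to 26.1, 10.7 to 26.2, 22.9 to 24.1 and 18.9 to 23.1 CPM in the same order. These sums use the TMM factors from all peaks. For basal TEB over basal duct, the fibroblast, endothelial and pericyte markers had median log2 fold changes of -0.99, -0.31 and -0.90 with those factors. TSS-scaled, the medians were -0.34, 0.33 and -0.26, and none of these markers was called in that comparison. TSS-scaled, 2 of the 3 fibroblast, 3 of the 3 endothelial and 2 of the 3 pericyte markers were called higher in basal duct. The share of all TSS peaks was then 27.2%. The part of such cells in the levels of Eng, Acvrl1, Grem1, Fstl1 and the LTBP genes was not tested.

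Outside promoters, the same genes carried peaks of both lineages. Of the 436 other peaks, 205 were called in the basal direction in ducts and 135 in the luminal direction, against 31.2% and 39.6% of all 80900 other gene peaks. TSS-scaled, the counts were 176 and 149, against 24.9% and 44.3%. In TEBs, 88 were higher in basal cells and 87 lower, against 16.8% and 22.6%, or TSS-scaled 93 and 74, against 17.8% and 20.3%. Calls shared by ducts and TEBs numbered 78 in the basal direction (38.0% of those in ducts and 88.6% of those in TEBs) and 72 in the luminal direction (53.3% and 82.8%). Only 2 peaks were called in opposite directions. Across the 436 peaks the log2 fold changes of both lineage comparisons correlated with Pearson r = 0.77 and Spearman rho = 0.80, a description across peaks that share libraries and neighbouring sequence.

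**Figure D2:**
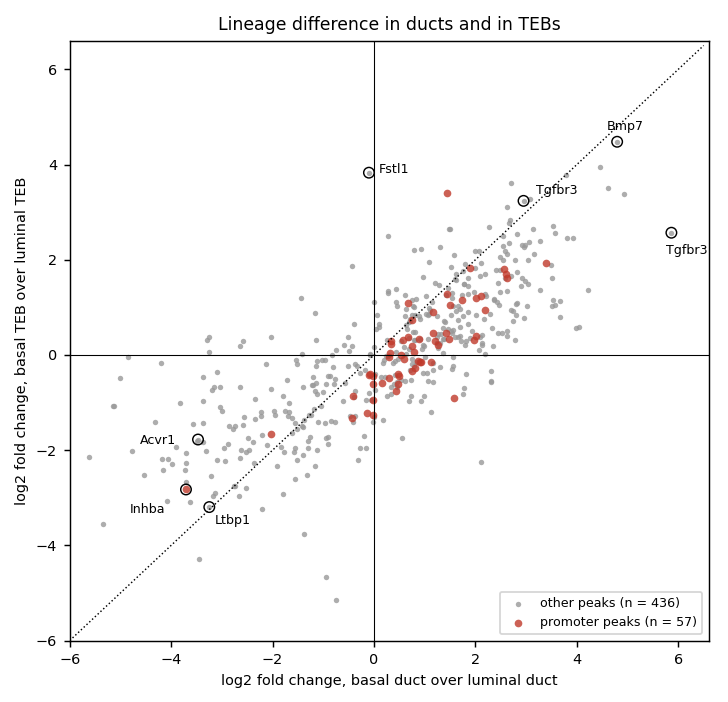
Each point is a member peak, with its log2 fold change between basal and luminal duct on the x axis and between basal and luminal TEB on the y axis; red points are the 57 promoter peaks, grey points the 436 other peaks, circles mark peaks named in the text and the dotted line marks equal values. Points lie mainly to the lower left and the upper right, the Bmp7 and Tgfbr3 peaks lie at the basal end, and the Fstl1 intron peak is near 0 in ducts and at 3.83 in TEBs.

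The balance of these peaks differed between genes. Counts by gene here and in the next paragraphs use the main scaling. In ducts it called 31.2% of all other gene peaks higher in basal cells and 39.6% higher in luminal cells. In TEBs the shares were 16.8% and 22.6%. TSS-scaled, other peaks of LTBP genes in ducts went from 25 basal and 27 luminal to 20 and 29. Those of SMAD and SKI genes went from 50 and 37 to 43 and 43. Of the 36 other peaks of Tgfbr3, 30 were higher in basal duct, 2 were lower, and 15 were higher in basal TEB. Its peak with the smallest p (chr5:107124099-107125061, in an intron 165 kb inside the gene, printed above) was 31.4 and 28.7 CPM in the basal duct libraries, 12.8, 15.7 and 4.88 in basal TEB, 0.848, 0.373 and 0.215 in luminal duct and 1.65, 1.64 and 2.31 in luminal TEB. The luminal libraries were near 0 and the basal TEB libraries lay below the basal duct ones. Its log2 fold change was 5.86 ± 0.29 (SE), adjusted p = 9.84e-67 in ducts and 2.57 ± 0.51 (SE), adjusted p = 7.09e-07 in TEBs. A second intron peak (chr5:107268114-107268908) was 20.1 and 14.9 CPM in the basal duct libraries, 17.9, 32.1 and 20.8 in basal TEB, 2.54, 2.61 and 1.29 in luminal duct and 2.47, 3.55 and 1.32 in luminal TEB. Here basal duct and basal TEB overlapped and both lay above every luminal library, with log2 fold changes of 2.95 ± 0.34 (SE), adjusted p = 1.21e-24 in ducts and 3.24 ± 0.42 (SE), adjusted p = 3.7e-16 in TEBs.

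Bmp7 had 13 of 17 other peaks higher in basal duct and 10 in basal TEB. Its leading peak lay in an intron 2.48 kb from the TSS (chr2:172937647-172938028). It was 15.8 and 16.8 CPM in the basal duct libraries, 19.4, 25.4 and 16 in basal TEB, 0, 0.56 and 1.07 in luminal duct and 1.37, 0 and 1.32 in luminal TEB. All 6 luminal libraries lay below all 5 basal ones. This gave log2 fold changes of 4.79 ± 0.51 (SE), adjusted p = 4.37e-37 in ducts and 4.48 ± 0.68 (SE), adjusted p = 4.93e-21 in TEBs. The inhibitory SMAD gene Smad6 was the most one-sided of the SMADs, with 15 of 16 other peaks higher in basal duct, and 3 of 16 higher in basal TEB. Ltbp2 (12 of 16) and Ltbp3 (8 of 10) leaned to basal duct too, as did Acvr1b (11 of 16), a type I activin receptor, and Id3 (4 of 5). For Eng, which encodes the endothelial co-receptor endoglin, 7 of 13 peaks were higher in basal duct and 4 in luminal duct.

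Bmpr1b and Ltbp1 leaned the other way. Bmpr1b, a type I BMP receptor, had 12 of 14 other peaks higher in luminal duct and none higher in basal duct, although its promoter was not called in either structure (16 ± 1.73 CPM in basal duct and 12.1 ± 1.93 in luminal duct, a log2 fold change of 0.34). In TEBs 6 of the 14 were higher in luminal cells. Ltbp1 combined a promoter higher in basal duct with 20 of 27 other peaks higher in luminal duct and 3 higher in basal duct. Its luminal peak with the smallest p (chr17:75112962-75113286, printed above) was 3.42 and 1.39 CPM in the basal duct libraries, 1.53, 0.391 and 3.1 in basal TEB, 18.7, 26.7 and 23.9 in luminal duct and 12.9, 18 and 15.1 in luminal TEB, with log2 fold changes of -3.25 ± 0.55 (SE), adjusted p = 7.21e-34 in ducts and -3.20 ± 0.61 (SE), adjusted p = 1.74e-11 in TEBs. A neighbouring peak (chr17:75110193-75111454) was 42.7 and 37.9 CPM in the basal duct libraries, 12.8, 14.9 and 12 in basal TEB, 89.7, 103 and 97.8 in luminal duct and 65.3, 99.2 and 65.5 in luminal TEB. Basal TEB was below basal duct there, and both were below the luminal groups, with log2 fold changes of -1.32 ± 0.10 (SE), adjusted p = 7.92e-17 in ducts and -2.53 ± 0.22 (SE), adjusted p = 6.56e-19 in TEBs.

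Acvr1, the type I receptor ALK2, had 12 of its 36 other peaks in each direction in ducts. The shares of all other gene peaks were 31.2% in the basal and 39.6% in the luminal direction. Its most luminal peak by p (chr2:58489255-58489832) was 2.16 and 0.462 CPM in the basal duct libraries, 4.09, 1.57 and 2.22 in basal TEB, 19.5, 12.3 and 14.2 in luminal duct and 9.33, 8.2 and 8.89 in luminal TEB, a log2 fold change of -3.47 ± 0.77 (SE), adjusted p = 5.46e-27 in ducts and -1.78 ± 0.35 (SE), adjusted p = 0.000392 in TEBs. A second (chr2:58562225-58562525) was 1.37 and 1.69 CPM in basal duct, 0.511, 1.17 and 2.66 in basal TEB, 11.2, 16 and 12.3 in luminal duct and 13.4, 11.5 and 10.5 in luminal TEB (-3.18 and -2.96). Basal and luminal libraries did not overlap at either. Smad3 was also mixed, with 13 peaks higher in basal duct and 9 in luminal duct out of 29. The lineage calls of the 7 Tgfbr3, Bmp7, Ltbp1 and Acvr1 peaks described so far were kept in every alternative.

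**Figure D3:**
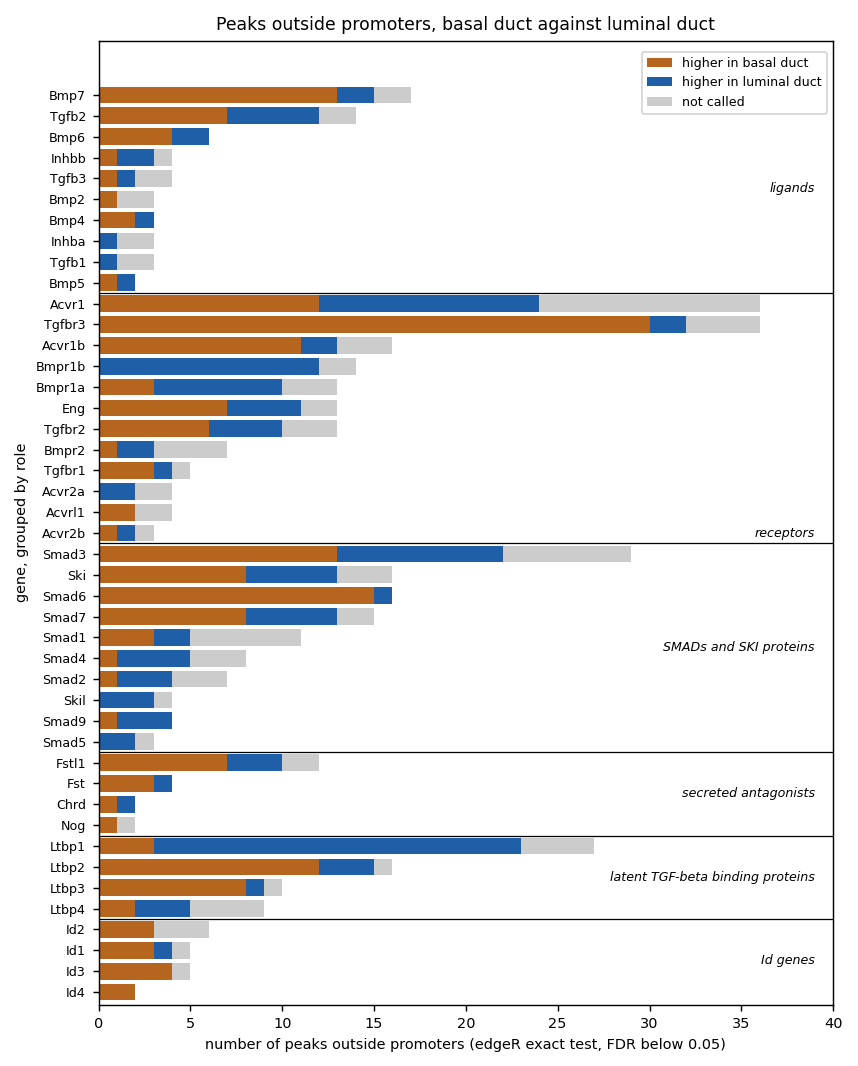
Horizontal bars count the other peaks of each of 44 genes, grouped by role: brown, called higher in basal duct; blue, called higher in luminal duct; grey, not called. Tgfbr3 is mostly brown (30 of 36), Bmpr1b has no brown (12 of 14 blue) and Ltbp1 is mostly blue (20 of 27).

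Peaks of the 2 directions differed in simple features. The 205 peaks higher in basal duct had a median width of 456 bp and a median GC content of 52.3%, and the 135 higher in luminal duct 291 bp and 46.7%, against 358 bp and 50.9% for all 436. In 300-base windows, 17% of the luminal peaks and 5.85% of the basal ones held the forkhead word, against 7.11% of all other gene peaks. The GC-rich SMAD word occurred in 9.76% of the basal and 1.48% of the luminal peaks, against 3.43% of all other gene peaks. The SMAD word CAGACA was about as common in both, at 33.2% and 34.1%. These shares were not tested.

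Between basal TEB and basal duct, every promoter call was lower in TEBs with the main scaling. Of the 57 promoter peaks, 30 were called lower in basal TEB and none higher, against 31.9% and 0.673% of all TSS peaks. The median log2 fold change of the 57 was -0.90, against -0.64 for all TSS peaks. TSS-scaled, 4 were lower (Smad9, Smad5, Acvr2a and Ltbp2) and 1 higher (a further promoter peak of Fstl1), against 3.27% and 4.64% of all TSS peaks, with a median of -0.24. Without basal duct replicate 1 a single promoter peak was called lower, and without replicate 3 there were 9. Leaving out a basal TEB library changed the count less. By the unadjusted p, 41 of the 57 were below 0.05, 1 of them higher.

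**Figure D4:**
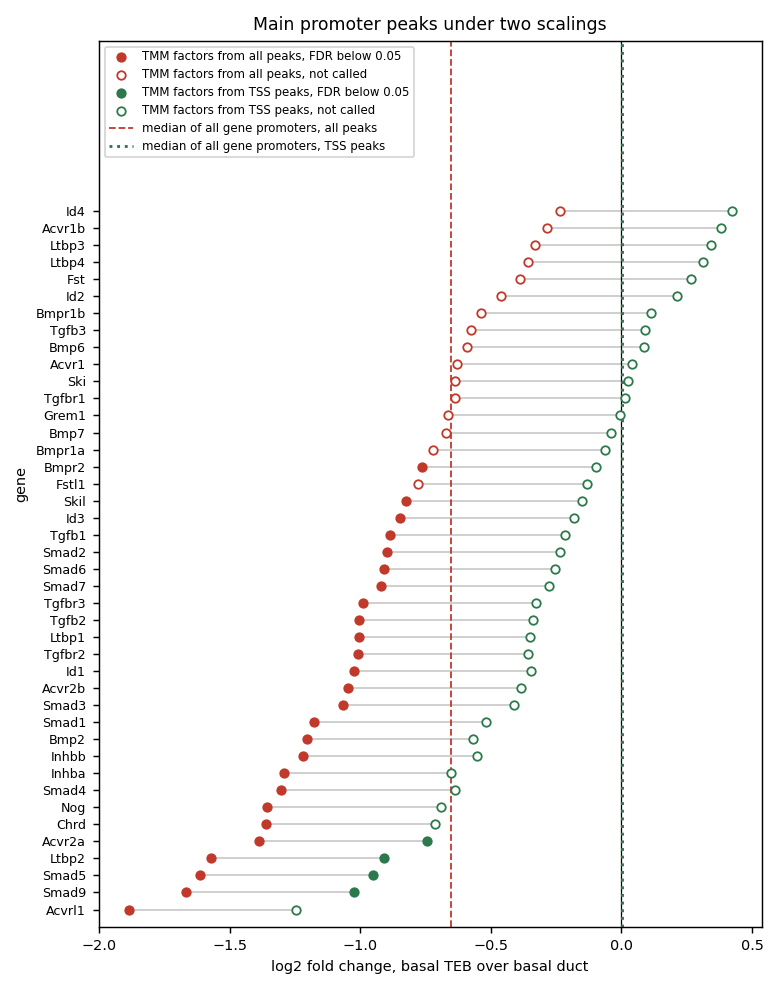
Points give the log2 fold change of basal TEB over basal duct for the 42 main promoter peaks, red with TMM factors from all peaks and green with factors from TSS peaks, filled where called; the dashed and dotted lines mark the median of all gene promoters under each. All red points lie below 0, with 26 called, and the green points straddle 0, with 4 called.

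Smad9 was the single main promoter whose call in this comparison was kept in all 12 alternatives. From 27.5 and 27.3 CPM in basal duct it fell to 4.6, 11 and 9.75 in basal TEB, a log2 fold change of -1.67 ± 0.37 (SE), adjusted p = 2.92e-05 and -1.03 TSS-scaled, with adjusted p from 1.2e-06 to 0.036 over the alternatives. Smad5, also a BMP SMAD, was 35.9 and 31 CPM in basal duct and 15.8, 10.2 and 7.09 in basal TEB (-1.61 ± 0.34 (SE), adjusted p = 3.66e-05; -0.95 TSS-scaled). Acvr2a was 41.4 and 42.8 CPM in basal duct and 11.8, 19.6 and 16.4 in basal TEB (-1.39 ± 0.21 (SE), adjusted p = 0.000102; -0.74 TSS-scaled). Ltbp2 was 25.1 and 18.9 CPM in basal duct and 8.69, 7.44 and 6.21 in basal TEB (-1.57 ± 0.24 (SE), adjusted p = 0.000165; -0.91 TSS-scaled). The groups did not overlap at any of the 4, and the last 3 lost their call when basal duct replicate 1 was left out.

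The other 22 called main promoters were no longer called TSS-scaled. They were, among the ligands, Inhba, Inhbb, Bmp2, Tgfb1 and Tgfb2. Among the receptors they were Acvrl1, Acvr2b, Tgfbr2, Tgfbr3 and Bmpr2. Smad1, Smad2, Smad3, Smad4, Smad6, Smad7 and Skil were the SMAD and SKI genes, Nog and Chrd the antagonists, and Ltbp1, Id1 and Id3 the remainder. Their main log2 fold changes ran from -1.89 (Acvrl1, 10.4 and 10.5 CPM in basal duct and 2.04, 3.13 and 3.1 in basal TEB) to -0.76 (Bmpr2, 64.8 and 54.5 CPM in basal duct and 27.6, 34.8 and 43 in basal TEB). TSS-scaled they ran from -1.24 to -0.10. Tgfbr1, the type I receptor of TGF-beta, was not called, with a log2 fold change of -0.64. For Nog the values were 24.6 and 21 CPM in basal duct and 9.2, 7.44 and 10.2 in basal TEB (-1.36 ± 0.17 (SE), adjusted p = 0.000828; -0.69 TSS-scaled). The main promoters of Bmp6, Bmp7, Fst, Fstl1, Ltbp3 and Id4, which were open in basal duct relative to luminal duct, were not called. Their log2 fold changes were -0.59, -0.67, -0.39, -0.78, -0.33 and -0.24. The further promoter peak of Ltbp3 was called lower in basal TEB with the main scaling, but not TSS-scaled.

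Among these promoters that were called under the main scaling alone, the ligand genes had the following levels. Inhba was 34.4 and 34.7 CPM in basal duct and 8.18, 18.4 and 15.1 in basal TEB, a log2 fold change of -1.29 ± 0.34 (SE). Inhbb was 31.8 and 23 CPM in basal duct and 10.7, 12.1 and 12.4 in basal TEB, a log2 fold change of -1.22 ± 0.24 (SE). Bmp2, which encodes a BMP that signals through BMPR1A and BMPR1B, was 12.1 and 11.6 CPM in basal duct and 3.07, 7.04 and 4.88 in basal TEB, a log2 fold change of -1.21 ± 0.32 (SE). For these 3 the basal TEB libraries were all below the basal duct ones, as they were for the TGF-beta ligands. Tgfb1 was 39.2 and 28 CPM in basal duct and 15.3, 18 and 21.3 in basal TEB, a log2 fold change of -0.89 ± 0.27 (SE). Tgfb2 was 39.5 and 29 CPM in basal duct and 16.9, 17.6 and 16.8 in basal TEB, a log2 fold change of -1.0 ± 0.22 (SE). The receptor genes formed a like group, with no overlap at any of them. Tgfbr2, the type II receptor of TGF-beta, was 46.3 and 37.3 CPM in basal duct and 15.3, 27.8 and 18.6 in basal TEB, a log2 fold change of -1.01 ± 0.29 (SE). Tgfbr3 was 45.5 and 34.8 CPM in basal duct and 17.9, 22.7 and 19.9 in basal TEB, a log2 fold change of -0.99 ± 0.21 (SE). Acvr2b, a type II activin receptor, was 41.1 and 33.6 CPM in basal duct and 21.5, 18.4 and 14.6 in basal TEB, a log2 fold change of -1.05 ± 0.21 (SE). Adjusted p over these 8 promoters ran from 0.000666 to 0.021 in the edgeR exact test.

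Transducers of both branches were among them. Smad1, a BMP SMAD, was 42 and 32.7 CPM in basal duct and 17.9, 18.4 and 13.3 in basal TEB, a log2 fold change of -1.18 ± 0.23 (SE). Smad2 was 77.8 and 63.9 CPM in basal duct and 33.2, 42.3 and 38.6 in basal TEB, a log2 fold change of -0.90 ± 0.17 (SE). Smad3 was 40.1 and 35.9 CPM in basal duct and 17.4, 19.2 and 17.7 in basal TEB, a log2 fold change of -1.07 ± 0.09 (SE). The shared SMAD and the inhibitory SMADs moved by similar amounts. Smad4 was 44.6 and 34.5 CPM in basal duct and 19.4, 16 and 12.9 in basal TEB, a log2 fold change of -1.30 ± 0.25 (SE). Smad6 was 41.5 and 37.6 CPM in basal duct and 14.3, 23.1 and 25.3 in basal TEB, a log2 fold change of -0.91 ± 0.26 (SE). Smad7 was 57.8 and 56.1 CPM in basal duct and 26.1, 38.7 and 24.8 in basal TEB, a log2 fold change of -0.92 ± 0.20 (SE). Skil, whose product represses SMAD complexes, was 122 and 89.5 CPM in basal duct and 57.8, 63.4 and 58.5 in basal TEB, a log2 fold change of -0.82 ± 0.23 (SE). Of the remaining genes, Chrd was 20.2 and 24.6 CPM in basal duct and 12.3, 7.44 and 6.65 in basal TEB, a log2 fold change of -1.36 ± 0.29 (SE). Ltbp1 was 50.3 and 43 CPM in basal duct and 19.9, 28.6 and 20.8 in basal TEB, a log2 fold change of -1.0 ± 0.20 (SE). The Id genes encode helix-loop-helix proteins that lack a DNA-binding region. Id1 was 21.8 and 14.3 CPM in basal duct and 10.7, 7.83 and 8.42 in basal TEB, a log2 fold change of -1.02 ± 0.32 (SE). Id3 was 40.5 and 35.6 CPM in basal duct and 18.4, 18.4 and 26.6 in basal TEB, a log2 fold change of -0.85 ± 0.20 (SE). The groups did not overlap at any of these 11, and adjusted p ran from 0.000414 to 0.0248 in the edgeR exact test.

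Among the 436 other peaks, 73 were called lower in basal TEB and 11 higher, against 7.19% and 6.47% of all other gene peaks. TSS-scaled the split turned, with 8 lower and 35 higher, against 1.29% and 12.7%, and with a correction for GC content it was 29 lower and 24 higher. Without basal duct replicate 1 there were 4 lower and 1 higher, and without replicate 3 there were 16 and 1. The median log2 fold change was -0.33, or 0.31 TSS-scaled. By number, Smad3 held 11 of the 73 lower peaks (out of its 29 other peaks) and Tgfbr3 10 (out of 36). Ltbp2 (out of 16) and Ltbp3 (out of 10) followed with 6 each.

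The Smad3 peak with the smallest p lies in an intron 11.8 kb from the TSS (chr9:63745827-63746660, printed above). It was 43.3 and 35 CPM in the basal duct libraries, 11.8, 7.83 and 9.31 in basal TEB, 11.2, 11.2 and 9.46 in luminal duct and 14.8, 10.4 and 12.8 in luminal TEB. The basal duct libraries were above all 9 others, and basal TEB did not stand apart from the luminal groups. Its log2 fold change was -2.04 ± 0.22 (SE), adjusted p = 3.57e-08, -1.37 TSS-scaled, and adjusted p ran from 5.83e-09 to 0.00853 over the 12 alternatives. Around it, 5 adjacent peaks from 8.78 to 14 kb inside the gene were all called lower in basal TEB, 2 of them TSS-scaled too, a run chosen after its values were seen. At the peak next to it (chr9:63747768-63747922), basal duct had 3.08 and 2.16 CPM, basal TEB 0, 0 and 0.443, luminal duct 6.15, 3.54 and 5.16 and luminal TEB 3.57, 6.56 and 4.28 (adjusted p = 0.00483). At the following one (chr9:63749066-63749363) basal duct had 1.94 and 2 CPM, basal TEB 0, 0 and 0.443, luminal duct 3.6, 3.17 and 2.79 and luminal TEB 5.49, 7.38 and 7.57 (adjusted p = 0.035). Such low levels in basal TEB rest on very few counts, and no fold change is given for them.

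A peak 8.62 kb upstream of Ltbp2 (chr12:84884613-84885690) was 50 and 49 CPM in the basal duct libraries, 15.8, 13.3 and 15.1 in basal TEB, 34.1, 29.9 and 21.5 in luminal duct and 27.7, 32.5 and 19.8 in luminal TEB. Basal duct and basal TEB did not overlap with each other, and basal TEB was the lowest of the 4. The log2 fold change of basal TEB over basal duct was -1.75 ± 0.07 (SE), adjusted p = 3.28e-07, -1.09 TSS-scaled, with adjusted p from 3.84e-07 to 0.00891 over the alternatives. The Ltbp1 intron peak at chr17:75110193-75111454 described above fell as well (-1.60 ± 0.12 (SE), adjusted p = 7.16e-06; -0.95 TSS-scaled, adjusted p from 8.88e-07 to 0.0433 over the alternatives). At the leading Tgfbr3 intron peak the log2 fold change was -1.43 ± 0.50 (SE), adjusted p = 0.000539, a call lost TSS-scaled and without basal duct replicate 1.

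The peak called higher in basal TEB with the smallest p was the Fstl1 intron peak 4.89 kb from the TSS (chr16:37781642-37781880), the tandem repeat printed above. It was 0.57 and 0.77 CPM in the basal duct libraries, 8.18, 7.04 and 15.1 in basal TEB, 0.636, 0.933 and 0.43 in luminal duct and 1.37, 0.546 and 0 in luminal TEB, so that the 3 basal TEB libraries were each above all 8 others. The log2 fold change over basal duct was 3.88 ± 0.35 (SE), adjusted p = 1.27e-08, with adjusted p from 2.89e-11 to 0.00827 over the alternatives, and over luminal TEB it was 3.83 ± 0.66 (SE), adjusted p = 2.2e-10. Of the 11 peaks called higher, it was the only one in which at least 60% of bases matched at a fixed period. Soft-masked repeat made up 3 others, at chr18:73691038-73691242 and chr18:73691622-73691890 in Smad4 and chr3:142008896-142009072 in Bmpr1b. The second Smad4 peak was 1.6 and 0.924 CPM in the basal duct libraries, 5.62, 5.09 and 10.6 in basal TEB, 4.24, 3.36 and 3.44 in luminal duct and 9.6, 0.82 and 12.8 in luminal TEB. Its log2 fold change was 2.43 ± 0.42 (SE), adjusted p = 0.000407, the call was lost without either basal duct library, and luminal TEB replicates 1 and 3 reached the level of basal TEB. Soft-masked peaks held 16.2% and 9.75% of the counts of basal TEB replicates 1 and 3, more than in any other library, and 7.03% in basal TEB replicate 2, where luminal TEB replicate 3 had 7.21%. The part of these shares in the calls was not tested. The remaining 7 were in introns of Tgfbr3, Bmp7, Acvr1, Acvr1b, Ski and Skil and upstream of Id2, with log2 fold changes of 1.17, 2.43, 2.45, 1.44, 1.01, 1.74 and 1.54.

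**Figure D5:**
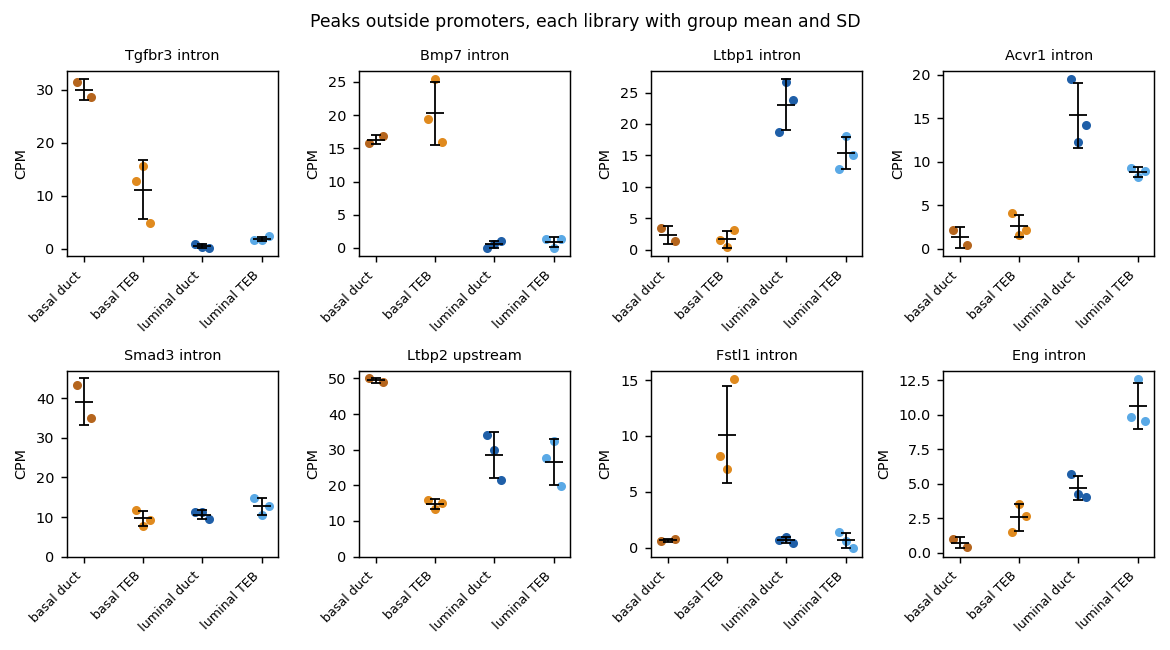
Panels show 8 other peaks, with CPM on the y axis from 0 and the 4 groups on the x axis; points are libraries and black marks give the group mean and SD. The Fstl1 peak is high in the 3 basal TEB libraries alone, the Smad3 and Ltbp2 peaks are highest in basal duct, and the Eng peak is highest in luminal TEB.

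Few member peaks were called between luminal TEB and luminal duct. A single promoter peak of 57 was called, the main promoter of Inhba, lower in luminal TEB, and none was called higher, against 1.26% and 0.114% of all TSS peaks (edgeR exact test). Inhba was 42.4, 41.8 and 49 CPM in luminal duct and 28.5, 28.7 and 20.1 in luminal TEB, without overlap, a log2 fold change of -0.77 ± 0.18 (SE), adjusted p = 0.00235 and -0.61 TSS-scaled. The call was lost without luminal TEB replicate 3. By the unadjusted p, 8 promoter peaks were below 0.05 and none of them was higher. Of the 436 other peaks, 1 was called higher and none lower, against 0.334% and 0.287% of all other gene peaks, with 49 below 0.05 unadjusted, 34 of them higher. TSS-scaled, 5 were higher and none lower, against 0.969% and 0.148%, and the promoter count was again 1 lower and none higher, against 0.409% and 0.421%. DESeq2 gave an adjusted p to 7 of the 436 and called none of these, and the 1 peak called here had no adjusted p from it. The called peak lies in an intron of Eng 18.9 kb from the TSS (chr2:32665331-32665723). It was 1.03 and 0.462 CPM in the basal duct libraries, 1.53, 3.52 and 2.66 in basal TEB, 5.73, 4.29 and 4.08 in luminal duct and 9.88, 12.6 and 9.55 in luminal TEB, so that luminal TEB was above all other groups. Its log2 fold change was 1.19 ± 0.18 (SE), adjusted p = 0.00976, and the call was lost without luminal duct replicate 2 or luminal TEB replicate 2. The summed endothelial markers, which include no promoter peak of the defining genes Pecam1 and Cdh5, were 4.45 to 7.74 CPM in luminal duct and 5.46 to 8.89 in luminal TEB.

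Whether the TEB difference itself differed between lineages was tested as an interaction in the edgeR quasi-likelihood fit over all 11 libraries. Of 56 promoter peaks tested, 15 had a lower TEB-to-duct fold change in basal cells and none a higher one, against 14% and 1.05% of all TSS peaks. By the unadjusted p, 27 were below 0.05, none of them higher. TSS-scaled there were 4 (Acvrl1, Smad9, Inhbb and Ltbp1) and none higher, against 4.39% and 5.29%. Without basal duct replicate 1 there were 2. Acvrl1 was 10.4 and 10.5 CPM in basal duct, 2.04, 3.13 and 3.1 in basal TEB, 3.18, 3.73 and 3.01 in luminal duct and 4.67, 4.92 and 6.26 in luminal TEB. It was lower in TEBs in basal cells and not called in luminal cells, with a difference of fold changes of -2.48 ± 0.22 (SE), adjusted p = 0.00118 and adjusted p from 0.000722 to 0.00955 over the 17 alternatives. For Smad9 the difference was -1.66 ± 0.38 (SE), adjusted p = 0.00389, with adjusted p from 0.000708 to 0.0379. These 2 promoters kept the call in every alternative. Of 378 other peaks tested, 41 were lower and 8 higher, against 5.49% and 6.86% of all other gene peaks, and 24 lower and 21 higher TSS-scaled, against 2.4% and 11.7%. Smad3 held 10 of the 41. The leading Smad3, Ltbp2 and Tgfbr3 peaks, the Ltbp1 intron peak at chr17:75110193-75111454 and the Fstl1 repeat kept their calls in every alternative, at -2.23 ± 0.28, -1.60 ± 0.29, -3.25 ± 0.58, -1.20 ± 0.24 and 3.95 ± 0.69 (SE).

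A wider list held 56 names of pathway genes outside the 45, such as Bambi, Smurf1, Tgfbi and Thbs1. Of these names, 54 were in the annotation and 45 had a main promoter peak. Here the counts are set beside those of the 42 main promoters above and the shares of all gene promoters. In ducts, 29 of the 45 were higher in basal cells and 2 lower, against 27 and 2 of the 42 and 43.7% and 11.3% of all gene promoters. TSS-scaled, the 45 had 21 higher and 6 lower, against 26.3% and 29%. In TEBs, 9 of the 45 were higher in basal cells and 5 lower, against 7 and 6 of the 42 and 9.72% and 15.1% of all. Between basal TEB and basal duct, 20 of the 45 and 26 of the 42 were lower and none higher, against 34.9% and 0.604% of all. TSS-scaled, 2 of the 45 were lower and 1 higher, against 3.52% and 4.69%. Between luminal TEB and luminal duct, the edgeR exact test called none of the 45 and 1 of the 42 (lower), against 1.44% of all lower and 0.102% higher. TSS-scaled it called 2 of the 45 higher, against 0.408% higher and 0.459% lower of all. In the interaction, 11 of 44 and 14 of the 42 were lower and none higher, against 14.9% and 0.961% of all. TSS-scaled, 2 of the 44 and 4 of the 42 were lower and none higher, against 4.59% and 5.67%.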

How the data were processed

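The authors trimmed adapters from paired ATAC-seq reads, used Bowtie2 (2.3.4.3 in the submitters' processing notes) for alignment to mm10, discarded duplicate reads and ran MACS2 for each population with its replicates pooled. Overlapping peaks were then merged and blacklisted regions dropped. The deposited table gives whole-number counts of reads per peak for 11 libraries and 153396 peaks. The deposited peak list holds 286 further peaks without counts, which were not used. Because peaks were called on pooled replicates, the list itself says nothing of the spread between libraries.

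TSSs were the 41446 protein-coding transcript starts of GENCODE vM21 basic (GRCm38). The 45 genes, the other gene lists, the motif words and the comparisons were chosen with earlier results of these data known. Peaks with per-library values were the member promoters called in a TEB-to-duct comparison or the interaction, and in each comparison the few promoter and other peaks with the smallest p; peaks named outside this rule (single levels, the Smad3 run, the soft-masked peaks) were chosen after their values were seen. Each pair of groups was compared by exact test on counts in classic edgeR (4.0.16, under R 4.3.3), with TMM factors on every peak with at least 1 count in either group, and p-values were Benjamini-Hochberg adjusted over all of these (FDR 0.05). The interaction used the edgeR quasi-likelihood test over 11 libraries after filterByExpr. Every p is two-sided. SEs were computed between libraries on log2 CPM (prior count 2). p-values measure the spread between these libraries, which come from pools of mice. Alternatives were RLE factors, TMM factors from TSS peaks, filterByExpr or no filter, the quasi-likelihood test, offsets by GC content in 10 bins, the replicate number as a block, DESeq2 1.42.0 and leaving out each library. The steps were tested on simulated data. Sequences were read from the reference genome (GRCm38), and the Acvr2a upstream sequence from RefSeq (GRCm38). No RefSeq promoter row overlapped the Tgfbr3 promoter peak.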

Additional observations from a re-analysis of the deposited data

Results flagged for a closer look

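The TEB-to-duct fold change differed between basal and luminal cells, by the interaction term of the edgeR quasi-likelihood test over 11 libraries, at 14 main promoters and 5 other peaks of these genes; each value is the log2 fold change in basal cells less that in luminal cells. The promoter values were -0.88 for Tgfbr2, -1.23 for Tgfbr3, -0.88 for Acvr2a, -1.08 for Acvr2b and -2.48 for Acvrl1 among the receptors, and -1.23 for Inhbb among the ligands. For the SMAD genes they were -1.07 for Smad1, -0.92 for Smad4, -1.09 for Smad5, -0.91 for Smad6, -0.93 for Smad7 and -1.66 for Smad9. Ltbp1 had -1.14 and Id1 -1.25. Adjusted p over the 14 ran from 0.00118 to 0.0463. The median gene promoter had -0.44, or -0.04 with factors from TSS peaks, under which 4 of the 14 promoters were still called.

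Outside promoters, the Fstl1 tandem-repeat peak had 3.95 and was the only one of the 5 above 0. The Smad3 intron peak had -2.23, the peak upstream of Ltbp2 -1.60, the leading Tgfbr3 intron peak -3.25 and the Ltbp1 intron peak -1.20. At the Tgfbr3 peak the luminal libraries were at 0.848, 0.373 and 0.215 CPM in ducts and 1.65, 1.64 and 2.31 in TEBs, so that this difference rests on few luminal counts.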

How the results depend on the processing

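No named peak that was called, by the main test or under an alternative, changed its direction between them, but the balance of calls over groups of peaks did turn. With TSS factors the calls among other peaks in basal TEB against basal duct went from mostly lower to mostly higher, with the median log2 fold change moving from -0.33 to 0.31, and the SMAD and SKI promoters in ducts from 6 higher and 1 lower to 2 and 6. In basal TEB against basal duct, 27 of the 32 named calls were lost without basal duct replicate 1, 19 without basal duct replicate 3, 23 with TSS factors and 20 with GC offsets. There, 1 promoter peak was called higher, where the main test had 0, with RLE factors, TSS factors, filterByExpr, the quasi-likelihood test and GC offsets, and the 30 lower became 4 with TSS factors and 7 with GC offsets. The 11 other peaks higher became 35 with TSS factors, 17 with filterByExpr, 24 with GC offsets and 6 with DESeq2, and the 73 lower became 8, 41, 29 and 24. In luminal TEB against luminal duct, the 1 other peak higher became 2 with RLE factors or GC offsets, 5 with TSS factors, 4 with filterByExpr and 0 with DESeq2, and the 0 lower became 3 with filterByExpr. In ducts, basal against luminal promoters became 25 higher and 10 lower with TSS factors and 25 and 11 with GC offsets, from 38 and 4. In TEBs, the 88 other peaks higher became 58 with DESeq2 and the 87 lower 53 with GC offsets. The interaction's 15 lower promoters became 4 with TSS factors, 2 with GC offsets and 9 with DESeq2, its 8 higher other peaks 21 with TSS factors, and its 41 lower ones 24, 27 and 24. Why GC offsets and TSS factors move these counts was not tested further.

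Leaving out 1 library at a time gave, for basal TEB against basal duct, 0 to 1 promoters higher (1 without basal TEB replicate 3), 1 to 34 lower, 1 to 16 other peaks higher and 4 to 79 lower, with the low ends without basal duct replicate 1. Luminal TEB against luminal duct gave 0 promoters higher, 0 to 1 lower (0 without luminal TEB replicate 3), 1 to 3 other peaks higher (2 without luminal duct replicate 3, 3 without luminal TEB replicate 2) and 0 to 2 lower (2 without luminal TEB replicate 2). The duct lineage comparison gave 32 to 39 promoters higher, 1 to 3 lower (1 without basal duct replicate 1, 2 without basal duct replicate 3 or luminal duct replicate 1), and 186 to 206 and 111 to 128 other peaks. The TEB lineage comparison gave 8 to 12 and 5 to 10 promoters, and 54 to 89 (54 without luminal TEB replicate 2) and 59 to 80 other peaks. The interaction gave 0 promoters higher, 2 to 19 lower (2 without basal duct replicate 1, 9 without luminal duct replicate 2 or 3), 4 to 18 other peaks higher (18 without basal TEB replicate 2, 4 without basal TEB replicate 3, 5 without luminal TEB replicate 2) and 21 to 50 lower (21 without basal duct replicate 1). Where 1 basal duct library is left, it is assumed to vary like the other group of the pair.

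Summed levels also moved with the scaling. Member promoters summed to 1648 CPM in basal duct, 918 in basal TEB and 978 in luminal TEB, and with TSS factors to 1224, 1059 and 1057. Other member peaks summed to 3064, 2147, 2032 and 2064 CPM in basal duct, basal TEB, luminal duct and luminal TEB, and to 2284, 2482, 1974 and 2233 with TSS factors. Without TMM factors the first 3 of these were 2800, 2293 and 1984.5. DESeq2 gave no adjusted p to 429 of the 436 other peaks and 38 of the 57 promoters in luminal TEB against luminal duct, to 81 other peaks in basal TEB against basal duct, to 57 in the TEB lineage comparison and to 25 in the interaction, and these are not among its counts. The depth of basal TEB, with a median of 6 counts per peak, limits what can be called in weak peaks there.

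The labels do not say whether libraries of the same replicate number share a pool of mice. The deviations of same-numbered libraries from their group means correlated at -0.000629 to 0.0781 over 126832 peaks. Each luminal duct library correlated best with the luminal TEB library of its own number. Luminal duct replicates 1 and 3 did so with basal duct as well. There, 2 libraries deviate from their mean by equal and opposite amounts, so the best match rests only on the sign of a correlation. Best matches by number did not hold throughout in basal TEB against basal duct or basal TEB against luminal TEB. As the correlations were small and the labels silent, the main tests did not treat the samples as paired. With the replicate number as a block, luminal TEB against luminal duct gave 5 other peaks higher and 4 lower and 1 promoter lower. In the same fit, basal TEB against basal duct gave 0 promoters higher and 32 lower, with 12 and 74 other peaks. The block gave 37 and 4 promoters in the duct comparison, 11 and 10 in the TEB comparison and 0 and 17 in the interaction.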
